A study of Felis catus with 3 samples.

Results

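The genes described here encode cytokines, growth factors, guidance cues and their receptors in cultured feline adipose-derived mesenchymal stem cells (ASCs). They were taken by symbol prefix: interleukins, CXC and CC chemokines and their receptors, the TNF ligand and receptor superfamilies, and the TGFB, FGF, WNT, BMP, GDF, IGF, PDGF, VEGF, EPH, EFN, SEMA, PLXN, FZD and NOTCH families. Symbols came from the study's gene table, of which only part could be read here. Of the 21529 genes measured, 1997 could thus be paired with a position and 1811 with a symbol. Of these symbols, 38 carried such a prefix. None of the 38 was a TGFB, GDF, VEGF, EFN or FZD gene, nor IL6 or IL8, so these were not analysed here. Family members among the genes without a symbol were not analysed here. The prefix rule itself uses no measured value, although it was set with earlier results of these data known. By role, 20 of the 38 genes encode ligands (secreted or membrane-bound signals), 13 encode receptors on the cell surface and 3 encode soluble proteins that bind a ligand. The remaining 2, BMP2K and IGF2BP1, encode an intracellular kinase and an RNA-binding protein and share only the prefix.

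Messenger RNA was sequenced from 3 primary ASC cultures, named Gray_Boy, Luna and SPF2, each from a different cat and each with 1 library. All were untreated, noninduced cells at passages 3 to 4 in MEMα with 10% fetal bovine serum, so there was no second condition. The study drew fat from specific pathogen-free (SPF) and client-owned cats, and the name SPF2 carries the abbreviation of the former, while the names of the other cultures give no source. Expression was given in FPKM, which is scaled to transcript length and library size. Comparisons between genes rest on that scaling, whose accuracy for single genes was not checked here.

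Cells signal to each other when a ligand from one cell binds a receptor on another or on the cell itself. Chemokines and interleukins guide and instruct leukocytes. WNT, BMP, FGF and Notch signals steer growth and differentiation, and semaphorins act on plexin receptors to direct cell migration. Mesenchymal stem cells are known for modulating immune cells largely through secreted factors, and the cultures were measured at rest, without lymphocytes.

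Only 2 of the 11 genes on the stromal marker list had a symbol, and both were abundant in every culture. ENG, which encodes the ASC surface protein CD105, was at 72.5 FPKM in Gray_Boy, 117 in Luna and 73.9 in SPF2. The collagen gene COL5A1 was at 178, 480 and 261 FPKM in the same order. Of 15 listed leukocyte genes, 12 had a symbol. Of these, 10 were under 1 FPKM in every culture, and the T-cell gene CD2 was listed at 0 in all. The tetraspanin gene CD37 was the exception, with 5.03 to 7.70 FPKM, and CORO1A ranged from 0.564 to 1.03 FPKM. The summed leukocyte list was at 6.54 to 10.0 FPKM. Of 8 listed endothelial genes, 4 had a symbol. TEK and LYVE1 were under 1 FPKM in every culture, FLT4 was at 1.47 to 2.02 FPKM and CLEC1A was at 3.59 to 9.80 FPKM. The summed level of these 4 was 6.52 FPKM in Gray_Boy, 12.1 in Luna and 5.67 in SPF2. Of 4 listed epithelial genes, 3 had a symbol. KRT5 and KRT19 were listed at 0 in all 3 cultures, and KRT7 reached 0.634 FPKM at most.

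A few members were very abundant and most were barely detected. CCL2 and IGFBP6 each exceeded 100 FPKM in every culture and together held 79.3 to 83.4% of the summed FPKM of the 38 genes. At 15 FPKM, a level that the study treats as moderate, 4 of the 38 genes passed in all 3 cultures: CCL2, IGFBP6, IGF2R and PLXNA1. Over all genes, 22.1% passed at 15 FPKM and 3.59% at 100 FPKM. Among the genes with a symbol 30.4% reached 15 FPKM in every culture. At 1 FPKM, 14 of the 38 genes (36.8%) passed in all cultures, against 49.6% of all genes and 61.3% of the genes with a symbol. A further 13 members (34.2%) were listed at 0 in every culture, against 29.0% of all genes and 14.2% of those with a symbol. None of 37 genes that every cell uses, picked among those with a symbol, was listed at 0. The lowest value among them was 36.3 FPKM, so they cannot show how reliable a listed 0 is for genes of low level. In these bulk samples, fewer cells that express a gene and less RNA per cell cannot be told apart.

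**Figure D1:**
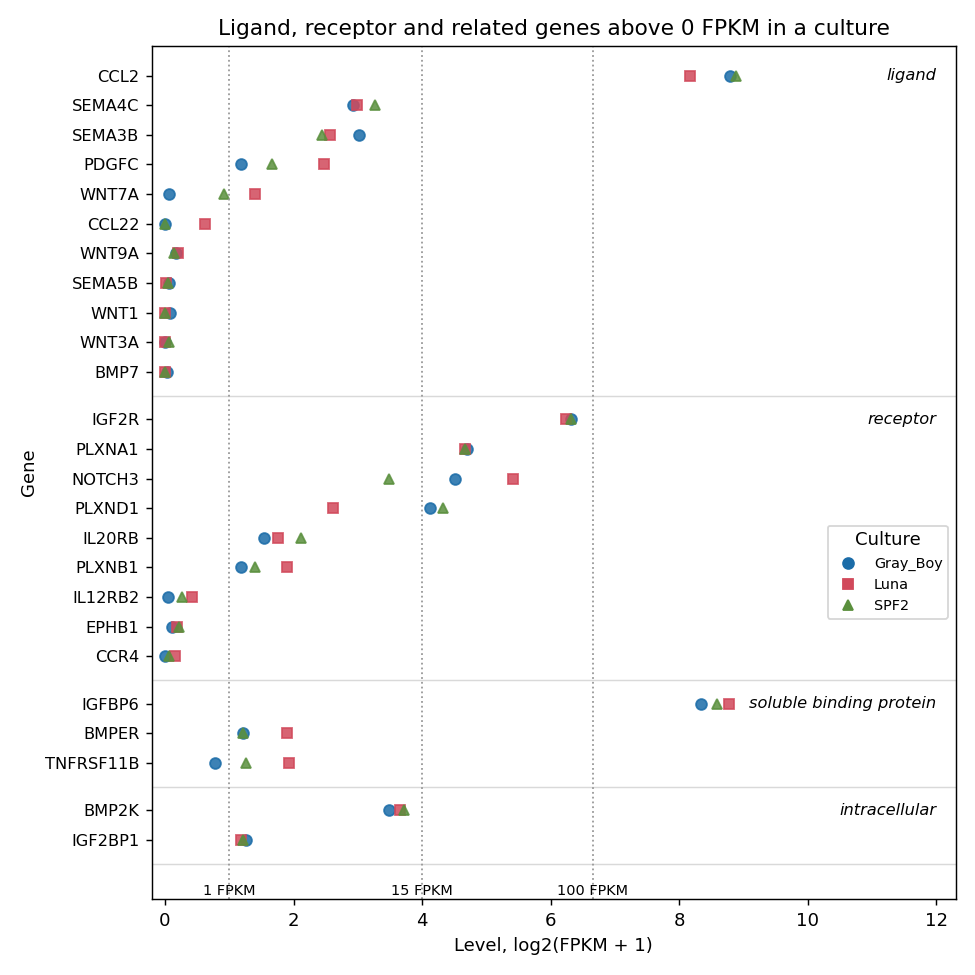
Level of the 25 members above 0 FPKM in at least 1 culture, as log2(FPKM + 1) on the horizontal axis, grouped by role, with 1 point per culture and dotted lines at 1, 15 and 100 FPKM. CCL2 and IGFBP6 lie beyond 100 FPKM in every culture, and most ligand genes lie left of 1 FPKM.

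CCL2 was the most abundant ligand among the members by a wide margin. It encodes a CC chemokine that attracts monocytes, and its locus (ENSFCAG00000000840) spans 21523170 to 21524620 on chromosome E1 of Felis Catus 8.0. Its level was 443 FPKM in Gray_Boy, 286 in Luna and 473 in SPF2, with a mean of 401 ± 101 FPKM (SD, n = 3 cultures). The culture with the least CCL2 was Luna, and even there the gene stood above 98.5% of all genes. CCL2 alone held 93.8 to 96.7% of the summed ligand FPKM, and without it the other 19 ligands summed to 15.2 to 18.7 FPKM.

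The other chemokine ligands among the members were at or near 0 FPKM. CCL5, a chemokine for T cells that lies 1184 kb from CCL2 on chromosome E1, was listed at 0 in all cultures. CXCL17, a mucosal chemokine, was likewise listed at 0. CCL22, which attracts T cells that carry CCR4, was listed at 0 in Gray_Boy and SPF2 and was at 0.541 FPKM in Luna.

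No chemokine receptor among the members reached 1 FPKM. CCR8 and CXCR3, receptors of T-cell subsets, were listed at 0 in every culture. CCR4, the receptor for CCL22, was listed at 0 in Gray_Boy and was at 0.116 FPKM in Luna and 0.0405 FPKM in SPF2. Outside the prefix rule, ACKR2, an atypical receptor that scavenges inflammatory CC chemokines including CCL2, was at 1.31 FPKM in Gray_Boy, 0.116 in Luna and 0.570 in SPF2. CX3CR1, the fractalkine receptor, was listed at 0 in all 3. CCL2 thus exceeded ACKR2 by 340-fold in Gray_Boy, 2467-fold in Luna and 831-fold in SPF2. These ratios rest on low ACKR2 values of unknown precision, the Luna ratio above all. CCR2, the main signalling receptor for CCL2, was not in the part of the gene table that could be read and was not analysed here.

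The interleukin and interleukin receptor genes among the members were near 0 with 1 exception. The type 2 cytokine genes IL4 and IL13 were listed at 0 in all cultures. They were assigned 1 shared locus on chromosome A1 (110130364 to 110322513), and no other member shared its locus with a gene of known position. On the receptor side, IL5RA, which binds the eosinophil cytokine IL5, and IL23R, which binds IL23, were listed at 0 throughout. IL12RB2, a subunit of the IL12 receptor whose gene lies 51.8 kb from IL23R on chromosome C1, was at 0.0339 FPKM in Gray_Boy, 0.336 in Luna and 0.196 in SPF2.

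Of the 4 interleukin receptor genes among the members, 1 was above 1 FPKM, namely IL20RB. It encodes the beta subunit shared by receptors for the IL20 subfamily of cytokines. Its values were 1.89 FPKM in Gray_Boy, 2.38 in Luna and 3.33 in SPF2, a mean of 2.54 ± 0.73 FPKM. The partner subunits were not in the part of the gene table that could be read and were not analysed.

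Of the insulin-like growth factor genes among the members, the binding protein and the clearance receptor were both high. IGFBP6 (ENSFCAG00000000306, chromosome B4, 81972071 to 81975696) encodes a secreted protein that binds IGF2 in preference to IGF1. It was at 321 FPKM in Gray_Boy, 437 in Luna and 385 in SPF2, a mean of 381 ± 57.8 FPKM. IGF2R (ENSFCAG00000002850, chromosome B2, 146019151 to 146101865) encodes the receptor that takes up IGF2 for degradation and also sorts lysosomal enzymes.

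IGF2R was at 79.0 FPKM in Gray_Boy, 74.5 in Luna and 79.0 in SPF2, a mean of 77.5 ± 2.63 FPKM. It was the highest of the 13 receptor genes in every culture and held 49.2 to 57.2% of the summed receptor FPKM. Its level was 0.171 to 0.246 times that of IGFBP6. The order of CCL2 and IGFBP6 was not resolved, because CCL2 was 1.38 times IGFBP6 in Gray_Boy and 1.23 times in SPF2 but 0.654 times in Luna. Both stood above IGF2R, which stood above all other members, in every culture.

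The 3 plexin genes among the members, which encode semaphorin receptors, were all above 1 FPKM in every culture. They differed in how much they varied. PLXNA1 was at 25.0 FPKM in Gray_Boy and 24.4 in both Luna and SPF2, with a coefficient of variation of 1.48%. PLXND1, a receptor for SEMA3E that acts in vascular patterning, was at 16.4 FPKM in Gray_Boy, 5.13 in Luna and 19.0 in SPF2. The highest culture, SPF2, was 3.71 times as high as the lowest, Luna. PLXNB1 was the lowest of the 3, with 1.27, 2.71 and 1.65 FPKM in the same order. PLXNA1 exceeded PLXNB1 by 8.99- to 19.6-fold.

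The semaphorin genes among the members were expressed at lower levels than PLXNA1, but SEMA4C and SEMA3B were above PLXNB1 in every culture. SEMA4C, a membrane-bound semaphorin, was at 6.58 FPKM in Gray_Boy, 6.91 in Luna and 8.68 in SPF2. SEMA3B, a secreted semaphorin that acts through neuropilins and plexins, was at 7.07, 4.92 and 4.44 FPKM, so that PLXNA1 was 3.54 to 5.50 times as high. SEMA5B did not exceed 0.0424 FPKM in any culture. SEMA4C and SEMA3B changed places between cultures, with SEMA3B higher in Gray_Boy and SEMA4C higher in the other two.

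NOTCH3, a Notch receptor known from vascular smooth muscle and pericytes, showed the widest range of any receptor gene above 1 FPKM. Its locus (ENSFCAG00000000914) spans 10996745 to 11033441 on chromosome A2. It was at 21.7 FPKM in Gray_Boy, 41.5 in Luna and 10.2 in SPF2, a mean of 24.5 ± 15.9 FPKM and a 4.08-fold range. Its mean was close to that of PLXNA1 (24.6 FPKM), but NOTCH3 was above PLXNA1 in Luna and below it in the other cultures. Without Luna the mean of NOTCH3 was 16.0 FPKM and that of PLXNA1 was 24.7 FPKM.

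The Notch ligand gene JAG1, which lies outside the prefix rule, was also highest in Luna and lowest in SPF2, with 21.3 FPKM in Gray_Boy, 49.6 in Luna and 16.6 in SPF2. JAG1 was 0.982 to 1.63 times as high as NOTCH3. The ligand gene DLK1 was listed at 0 in all. Genes of contractile and perivascular cells also differed between cultures. They were picked after values were known, and 5 of 12 had a symbol. MCAM was at 14.4, 79.9 and 16.0 FPKM, LMOD1 at 27.4, 109 and 22.0 FPKM and SMTN at 44.7, 112 and 56.3 FPKM in Gray_Boy, Luna and SPF2. KCNMB1 was lowest in Luna (1.10 FPKM, against 4.42 and 7.74), and the pericyte gene RGS5 was at 0.293 FPKM in Gray_Boy, 0.0819 in Luna and 0 in SPF2. Their part in the NOTCH3 and JAG1 values was not tested.

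The WNT genes among the members, which encode secreted lipid-modified ligands, were near 0 apart from WNT7A. Its level was 0.0442 FPKM in Gray_Boy, 1.65 in Luna and 0.898 in SPF2. Luna was therefore 37.4 times as high as Gray_Boy, a ratio that rests on a Gray_Boy value near 0 and of unknown precision. WNT9A was at 0.104 to 0.145 FPKM in all 3 cultures. WNT1 was seen in Gray_Boy alone (0.0537 FPKM) and WNT3A in SPF2 alone (0.0403 FPKM), although WNT3A and WNT9A are 57.5 kb apart on chromosome A1. WNT8A and WNT9B were listed at 0 throughout. The WNT co-receptor gene LRP6, by comparison, was at 17.1, 15.0 and 16.8 FPKM in Gray_Boy, Luna and SPF2, and the Hedgehog co-receptor gene BOC was at 13.5 to 15.9 FPKM.

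The remaining growth factor genes among the members were low. PDGFC, a platelet-derived growth factor that is activated by proteolysis and signals through PDGF receptor alpha, was at 1.27 FPKM in Gray_Boy, 4.56 in Luna and 2.16 in SPF2. BMP7, which drives bone and kidney development, was at 0.0261 FPKM in Gray_Boy and listed at 0 in the others. FGF23, a phosphate hormone of bone, and FGF6, a muscle growth factor, lie 51.7 kb apart on chromosome B4 and were listed at 0 in all cultures. TNFSF15, a TNF family ligand for T cells, was also listed at 0.

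BMPER, a secreted modulator of BMP activity, was higher than the BMP7 gene in every culture, with 1.32 FPKM in Gray_Boy, 2.75 in Luna and 1.31 in SPF2. TNFRSF11B encodes osteoprotegerin, a soluble decoy receptor that restrains bone resorption. Its level was 0.714 FPKM in Gray_Boy, 2.82 in Luna and 1.40 in SPF2. EPHB1, a receptor for B-type ephrins, stayed at 0.0785 to 0.162 FPKM. The intracellular BMP2K was at 10.2, 11.6 and 12.1 FPKM in Gray_Boy, Luna and SPF2, and IGF2BP1 was at 1.41, 1.28 and 1.32 FPKM.

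Ligand and receptor genes were compared by the share that was detected. In all 3 cultures, 6 of 13 receptors (46.2%) and 4 of 20 ligands (20%) reached 1 FPKM. The share was 49.6% over all genes and 61.3% over the genes with a symbol, from which all members came. The differences between these shares were not tested. At 15 FPKM, 2 receptors and 1 ligand passed in every culture. Conversely, 9 ligands (45%) and 4 receptors (30.8%) were listed at 0 in every culture. The median ligand was at 0 FPKM in each culture, and the median receptor was at 0.0785 FPKM in Gray_Boy, 0.336 in Luna and 0.196 in SPF2. The medians were 1.41 to 1.49 FPKM over all genes and 5.46 to 5.49 FPKM over the genes with a symbol.

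On the log2(FPKM + 1) scale, the mean level of the ligands was 0.82 in Gray_Boy, 0.92 in Luna and 0.87 in SPF2. That of the receptors was 1.73, 1.80 and 1.76. The ligands were thus lower in all 3 cultures, with a difference of ligands minus receptors of -0.89 ± 0.02 log2 units (SD, n = 3 cultures) and single values from -0.92 to -0.87. The members were fixed by symbol and are not replicates, and 3 cultures cannot give an exact two-sided sign test p below 0.25, so the difference was not tested. On linear FPKM the order turned around, since CCL2 brought the summed ligands to 459, 304 and 490 FPKM in Gray_Boy, Luna and SPF2 against 145, 151 and 138 FPKM for the receptors. The size of the log2 difference rested on single genes and on the summary used. It was -0.51 without IGF2R, -0.26 as a difference of medians and -1.30 without CCL2, the last chosen after seeing the data.

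**Figure D2:**
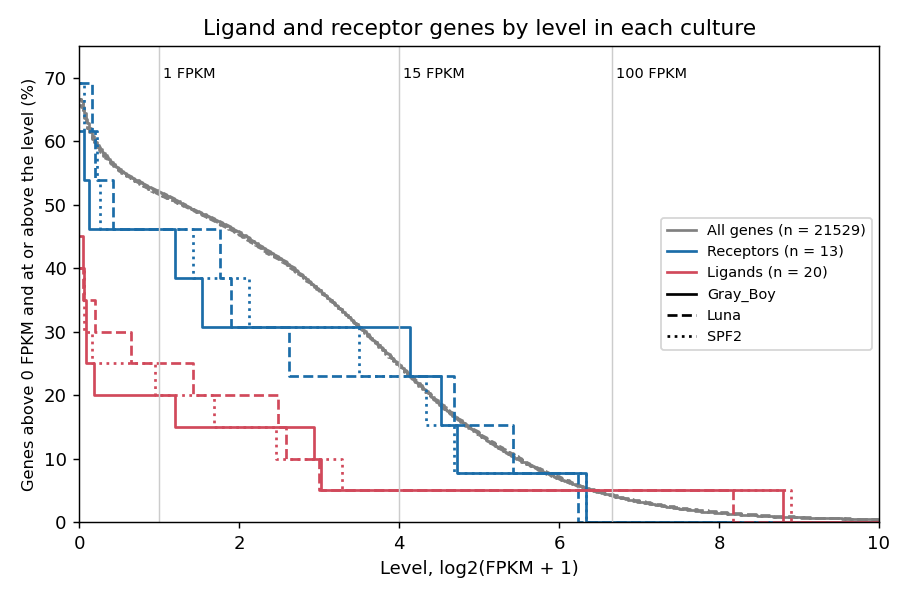
Share of the 20 ligand genes, the 13 receptor genes and all 21529 genes that were above 0 FPKM and at or above the level on the horizontal axis, log2(FPKM + 1), with 1 line per culture. The ligand lines lie below the receptor lines at 1 FPKM (20 to 25% against 46.2%), and CCL2 is the only ligand or receptor beyond 100 FPKM.

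The same comparison was made in 15 ligand and 13 receptor genes of related pathways outside the prefixes (EGF, Hedgehog, neurotrophin and netrin ligands, for example). This list was chosen with earlier results of these data known. In every culture, 3 of these ligands (20%) and 6 of these receptors (46.2%) reached 1 FPKM. The share was 49.6% over all genes and 61.3% over the genes with a symbol. At 15 FPKM, 1 of these ligands (6.67%) and 1 of these receptors (7.69%) passed in every culture. The differences between these shares were not tested. The highest ligands were JAG1, SPP1, which encodes osteopontin (7.10 FPKM in Gray_Boy, 14.7 in Luna and 3.82 in SPF2), and HBEGF, an EGF receptor ligand (2.16, 5.92 and 4.18 FPKM). The highest receptors were ENG, LRP6 and BOC. NRP2, a co-receptor for class 3 semaphorins, was at 10.1, 15.6 and 8.50 FPKM in Gray_Boy, Luna and SPF2.

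Differences between cultures were described by the ratio of FPKM + 1, with 2-fold as the limit, because 1 library per culture allows no test against replicate error. NOTCH3, PLXND1, PDGFC, WNT7A and TNFRSF11B passed in at least 1 pair of cultures. These 5 of 38 genes (13.2%) compare with 6.14% of all genes and 7.40% of the genes with a symbol. The difference between these shares was not tested. Without Luna the count was 1 (NOTCH3), and without Gray_Boy it was 2 (NOTCH3 and PLXND1). Adding 1 to each value damps the ratio of low genes, so that WNT7A, at 37.4-fold in FPKM, was at 2.54-fold on this scale.

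Between Gray_Boy and Luna, 4 members (10.5%) differed 2-fold or more, against 4.25% of all genes. PDGFC, TNFRSF11B and WNT7A were higher in Luna (2.14% of all genes were) and PLXND1 was higher in Gray_Boy (2.11% of all genes). Between Luna and SPF2, 2 members (5.26%) differed, against 3.91% of all genes. NOTCH3 was higher in Luna, as were 2.13% of all genes, and PLXND1 was higher in SPF2, as were 1.77%. Between Gray_Boy and SPF2, NOTCH3 alone differed, against 1.61% of all genes. It was higher in Gray_Boy, a direction shared by 0.989% of all genes, whereas none of the 38 was 2-fold higher in SPF2 (0.622% of all genes).

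Among the 14 members at 1 FPKM or more in every culture, the median coefficient of variation over cultures was 25.4%. It was 12.5% for the 10681 genes of the whole table at this level. These sets were not matched in level above 1 FPKM, and the difference was not tested. The steadiest were PLXNA1 (1.48%), IGF2R (3.39%) and IGF2BP1 (4.81%), and the most variable were NOTCH3 (64.8%), PDGFC (63.9%) and PLXND1 (54.6%). Luna was the culture farthest from the mean of the other two for 6 of the 14 (42.9%), against 48.6% over all genes at this level.

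**Figure D3:**
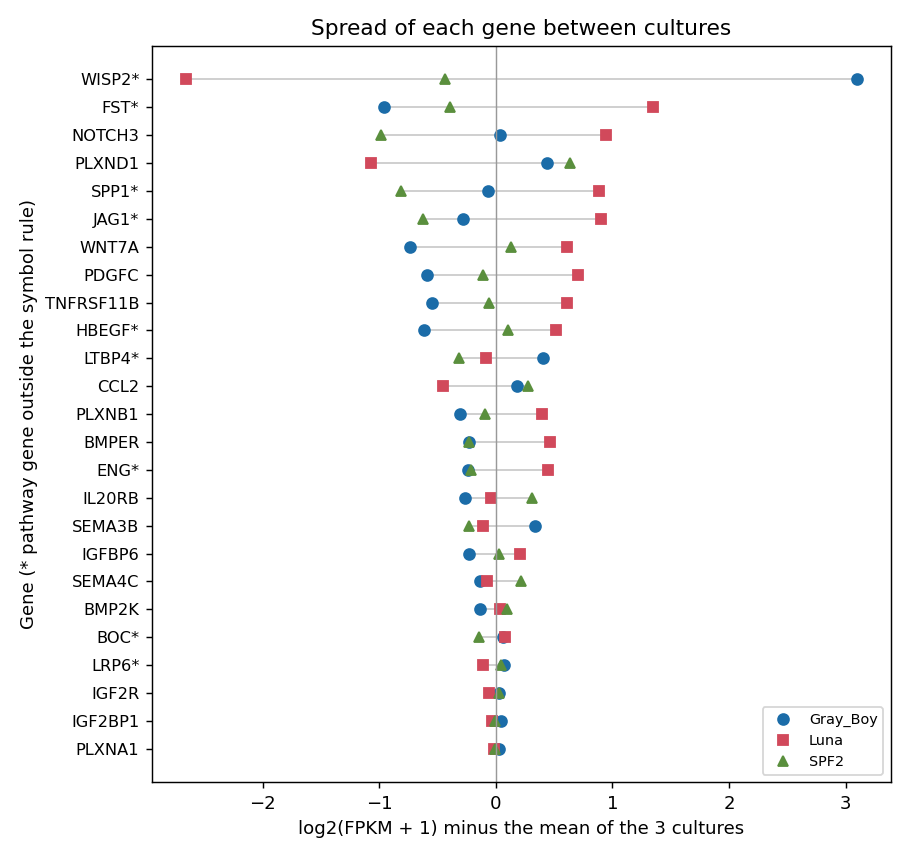
Deviation of each culture from the mean of the 3 cultures, in log2(FPKM + 1), for the 14 members at 1 FPKM or more in every culture, TNFRSF11B and WNT7A, and for the 3 highest genes of each extracellular class of the pathway list (starred), ordered by range. NOTCH3 and PLXND1 have the widest range among the members and PLXNA1 the narrowest.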

How the data were processed

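The deposited values were FPKM per gene (fragments scaled to transcript length and library size) for 3 libraries. The authors prepared them with a stranded poly(A) kit. They used HISAT for alignment to Felis Catus 8.0, Cufflinks for gene levels and Cuffnorm for scaling between libraries. Program versions and the annotation release were not given in the sources used here. Symbols and loci came from the rows of the study's full gene table that could be read, and levels from the deposited files. Members and lists were chosen with earlier results of these data known. All members above 0 FPKM and the 3 highest genes of each role of the pathway list were named.

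Ratios were computed on FPKM + 1 with Python 3.11.15, pandas 2.3.3 and numpy 2.4.6, without a filter on low values, and the code was tested on simulated data. FPKM are not counts, so fragments per gene and counting intervals are unknown. Under 0.15 FPKM, the ratio of Gray_Boy to Luna fell within 1% of whole-fragment steps for 59.3% of 663 genes, with 1 fragment worth 0.911 times as much in Gray_Boy. Steps against SPF2 were less plain (30.9% and 24.1%). Alternatives were other thresholds, pseudocounts, scalings, role assignments and leaving out each culture. No comparison of groups was possible.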

Additional observations from a re-analysis of the deposited data

How the results depend on the processing

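On summed linear FPKM, where CCL2 dominated, ligands stood above receptors in every culture. On the log2 scale, the difference of ligands minus receptors (-0.89) kept its sign under every alternative tried. Its size depended on the choices. It was -1.69 with a pseudocount of 0.1, -0.96 over members above 0 FPKM in at least 1 culture, -0.86 with TNFRSF11B as a receptor, -0.51 without IGF2R, -0.97 without SEMA4C and SEMA5B, -1.03 after rescaling to a sum of 1000000, and -0.26 as a difference of medians. Leaving out CCL2, an alternative chosen after seeing the data, gave -1.30. Leaving out 1 culture gave -0.90 to -0.88.

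The 14 members at 1 FPKM in all cultures fell to 9 at 2 FPKM. The 5 members with a 2-fold difference became 10 with a pseudocount of 0.1 (15.2% of all genes) and 9 at 1.5-fold (15.5% of all genes), and 1 to 4 when a culture was left out: 2 without Gray_Boy, 1 without Luna and 4 without SPF2. The same 5 genes passed after rescaling and after quantile normalization. The counts at 15 FPKM (4 to 6) and at 0 FPKM (13 to 17) stayed within 1.5 times. Of 20 members above 0 in every culture, quantile normalization moved none by more than its SD over cultures and rescaling, which multiplies values by 1.45 to 1.61, moved 15. A repeat with symbols from a reference table was not run, since that table pairs no Ensembl identifiers. With no fragment counts, the precision of the low values is unknown.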

Other observations

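Most signal transducer genes of the same pathways were expressed in every culture. Of 21 signal transducer genes, 19 (90.5%) reached 1 FPKM and 9 (42.9%) reached 15 FPKM in every culture. These shares were 49.6% and 22.1% over all genes, and 61.3% and 30.4% over the genes with a symbol. None of the 21 differed 2-fold between cultures, against 6.14% of all genes and 7.40% of the genes with a symbol. The list is short, and the difference between these shares was not tested. SOCS5, a suppressor of cytokine signalling, was at 94.5 FPKM in Gray_Boy, 134 in Luna and 107 in SPF2. The adaptor gene SHC1 was at 95.2, 85.9 and 113 FPKM, and the cytokine receptor kinase gene JAK1 at 88.1, 50.9 and 60.4 FPKM. The 2 transducers under 1 FPKM in every culture were GLI1, a Hedgehog target (0.0953 to 0.428 FPKM), and IRS4.

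Among the other pathway genes, 5 of 15 ligands, 1 of 13 receptors and 2 of 5 secreted or matrix modulators (WISP2 and FST) differed 2-fold between cultures, against 6.14% of all genes and 7.40% of those with a symbol. WISP2, a CCN family matrix protein linked to WNT signalling, was at 87.1 FPKM in Gray_Boy, 0.629 in Luna and 6.61 in SPF2. FST, which encodes the activin and BMP antagonist follistatin, was at 13.6, 71.3 and 20.6 FPKM, so that Luna was highest for FST and lowest for WISP2. LTBP4, a binding protein for latent TGF-beta, was at 10.0, 6.85 and 5.67 FPKM. These genes were measured in 1 library per culture, and the differences were not tested.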
